A study of Mus musculus with 6 samples.

Results

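Mamdc2, Gpr55 and Spint1 were barely expressed in wild-type cells of the mouse airspaces and were raised 13.5- to 145-fold in cells without CIS, whether or not STAT6 was present. Skint3, set beside them as a contrast, had no read in WT or Cis KO cells and was detected only in Cis Stat6 KO cells. No genotype lacked STAT6 alone. The 4 genes are 4 of the 40564 rows of the deposited tables. They were selected on measured values, because their read counts were above WT in both mutant genotypes (Skint3 in the double mutant alone), so their differences from WT, and every difference of Skint3, are described here without a test. The rule for that choice names no cut-off of level or fold.

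The cells were bronchoalveolar lavage (BALF) cells, which are washed out of the lung's airspaces and consist mostly of alveolar macrophages in a resting mouse. The labels call them immune cells from lung, give no treatment and carry a single date, and total RNA was sequenced. The genotypes, each with 2 replicates, were WT (genotype label WT), Cis KO (label KO) and Cis Stat6 KO (label Double KO). Without a genotype that lacked STAT6 alone, loss of STAT6 by itself cannot be told apart from loss of both proteins, for Skint3 too. The labels name no strain, age, sex or Cre driver, and no label ties a replicate to its own animal. The p-values below therefore measure the spread between these libraries, which may be technical.

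CIS, the product of Cish, is an SH2-domain protein of the SOCS family that STAT5 induces and that dampens cytokine receptor signalling, among others of the receptors for GM-CSF and interleukin 2. STAT6 is the transcription factor that interleukins 4 and 13 activate, and in alveolar macrophages it drives alternative activation. Mamdc2 encodes a secreted proteoglycan of the extracellular matrix built from MAM domains. Gpr55 encodes a G protein-coupled receptor for lysophosphatidylinositol that couples to G12 and G13 proteins. Spint1 encodes HAI-1, a membrane-anchored Kunitz-type inhibitor of the serine proteases matriptase, hepsin and HGF activator. Skint3 belongs to a butyrophilin-like family named after Skint1, which selects dendritic epidermal T cells in the thymus and skin.

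In the coordinates of the files (mm10), Mamdc2 (ENSMUSG00000033207) spans chr19:23302609-23448442 on the minus strand. Gpr55 (ENSMUSG00000049608) lies at chr1:85938318-85961007 on the minus strand. Spint1 (ENSMUSG00000027315) lies at chr2:119237362-119249514 on the plus strand, and Skint3 (ENSMUSG00000070868) at chr4:112232245-112300468 on the plus strand. Their transcript models in GENCODE M21 have at most 14, 2, 11 and 10 exons, in that order. The 4 genes sit on 4 chromosomes and none neighbours another. In the gene ontology terms deposited with the counts, Mamdc2, Gpr55 and Skint3 carry the term membrane, as do 28.8% of the tested genes, while Gpr55 and Spint1 carry plasma membrane, as do 15.4%.

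The promoters are shown because the genotypes differ in a STAT protein and in an inhibitor of STAT-activating receptors. RefSeq sequences (GRCm38.p6, 250 bases before to 50 after the gene start, read 5′ to 3′ on the gene's strand) were matched for 3 of the 4 genes, Gpr55, Spint1 and Skint3. Capitals mark matches to TTCNNNGAA, the palindromic element that STAT proteins share, or to TTCNNNNGAA, the more widely spaced form that STAT6 prefers. Both patterns read the same on both strands, and no 2 matches overlapped.
Gpr55 promoter (chr1:85961006-85961305, minus strand): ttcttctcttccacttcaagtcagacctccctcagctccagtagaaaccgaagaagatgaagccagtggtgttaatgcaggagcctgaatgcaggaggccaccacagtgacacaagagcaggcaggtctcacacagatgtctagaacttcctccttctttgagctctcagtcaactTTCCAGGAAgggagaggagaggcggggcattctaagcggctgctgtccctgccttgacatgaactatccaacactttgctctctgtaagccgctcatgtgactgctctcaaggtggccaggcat
Spint1 promoter (chr2:119237110-119237409, plus strand): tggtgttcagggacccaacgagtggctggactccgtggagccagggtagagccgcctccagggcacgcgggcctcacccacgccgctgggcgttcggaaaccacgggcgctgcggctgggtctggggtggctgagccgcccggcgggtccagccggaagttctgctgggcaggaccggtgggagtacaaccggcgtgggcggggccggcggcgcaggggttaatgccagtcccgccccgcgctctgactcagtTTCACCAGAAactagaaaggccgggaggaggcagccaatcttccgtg
Skint3 promoter (chr4:112231995-112232294, plus strand): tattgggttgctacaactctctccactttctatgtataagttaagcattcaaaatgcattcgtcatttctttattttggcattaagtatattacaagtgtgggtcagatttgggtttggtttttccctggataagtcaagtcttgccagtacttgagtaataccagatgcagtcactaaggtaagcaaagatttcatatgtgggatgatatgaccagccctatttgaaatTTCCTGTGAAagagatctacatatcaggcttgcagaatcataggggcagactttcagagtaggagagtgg
Each of the 3 windows held 1 match. That of Gpr55 was TTCCAGGAA, of the form TTCNNNGAA, and began 74 bases before the RefSeq start, which lies 48 bases upstream of the start in the files. Spint1 had TTCACCAGAA, 4 bases after its RefSeq start (2 bases from that in the files), and Skint3 TTCCTGTGAA, 20 bases before its start, both of the form TTCNNNNGAA. Of 32851 RefSeq promoter windows of the same length, 8.3% held TTCNNNGAA, 6.95% held TTCNNNNGAA and 14.6% held either. The windows otherwise differed: G and C made up 69.7% of that of Spint1, which held 28 CpG dinucleotides, against 52.3% and 4 in Gpr55 and 38.7% and 1 in Skint3. The median window had 52.7% G and C (quartiles 45.7% and 61.7%) and 7 CpG dinucleotides. These matches are a description of the sequence; no binding was measured.

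The 6 libraries summed to between 50762354 and 65937118 counts. One library stood apart: in Cis KO replicate 2, 3.29% of reads came from haemoglobin genes, against at most 0.0366% elsewhere, and 15855 genes had a count, against 19641 to 20431. Cish fell from 46.2 and 56.2 CPM (read counts normalised to library size) in the WT libraries to between 1.72 and 5.04 CPM in the mutants, although edgeR's quasi-likelihood test did not call its difference from WT (adjusted p = 0.0624 in Cis KO and 0.0767 in Cis Stat6 KO), which DESeq2 and limma-voom did. Stat6 stood at 31.6 and 25.5 CPM in the Cis Stat6 KO libraries and at 221 to 264 CPM in the others. Alveolar macrophage markers were detected for 18 of 18 genes in the list and summed to 19680 to 45520 CPM per library, Chil3 being the most read.

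Mamdc2, the matrix proteoglycan, differed from WT by the largest fold of the 3 genes read in every library. It was read 11 and 30 times in the WT libraries (95% Poisson intervals 5.49 to 19.7 and 20.2 to 42.8), 1413 and 561 times in Cis KO, and 3229 and 2262 times in Cis Stat6 KO. After normalisation these were 0.19 and 0.438 CPM in WT, 22.1 and 12.8 CPM in Cis KO, and 46.7 and 46.5 CPM in Cis Stat6 KO. Both Cis KO libraries lay above both WT libraries, as in 21.4% of tested genes, the Cis Stat6 KO libraries did so too, as in 23.3%, and both double mutant libraries lay above both Cis KO libraries. The fitted rise over WT was 5.77 ± 0.48 on the log2 scale (SE, 2 libraries per group), or 54.5-fold, in Cis KO, and 7.18 ± 0.51, or 145-fold, in Cis Stat6 KO. The size rests on few WT reads: without WT replicate 2 the folds were 90.8 and 243, and without WT replicate 1 they were 39.5 and 105. On log2(FPKM + 1), a scale that understates the change of low genes, the differences were 2.29 and 3.60.

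Gpr55, the lysophospholipid receptor, was low but present in WT, with 104 and 147 reads. The Cis KO libraries held 2238 and 802 reads and the Cis Stat6 KO libraries 3552 and 2206. In normalised counts the receptor rose from 1.79 and 2.15 CPM in WT to 35.0 and 18.3 CPM in Cis KO and to 51.3 and 45.4 CPM in Cis Stat6 KO. The order of the genotypes was that of Mamdc2, without overlap between groups. The fitted differences from WT were 3.75 ± 0.37 on the log2 scale, or 13.5-fold, and 4.61 ± 0.38, or 24.5-fold.

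Spint1, the protease inhibitor, had the opposite order of the mutants. Its reads numbered 108 and 89 in WT, 2227 and 2462 in Cis KO, and 2106 and 982 in Cis Stat6 KO. The normalised counts were 1.86 and 1.30 CPM in WT, 34.8 and 56.2 CPM in Cis KO, and 30.4 and 20.2 CPM in Cis Stat6 KO. Both mutants were again above WT, but here the Cis KO libraries were the highest. The fitted differences from WT were 4.85 ± 0.40, or 28.8-fold, in Cis KO and 4.00 ± 0.39, or 16.0-fold, in Cis Stat6 KO.

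Skint3 had 0 reads in each of the 4 WT and Cis KO libraries, where the 3 counts that a count of 0 allows correspond to 0.0438 to 0.0685 CPM. In Cis Stat6 KO it had 1224 and 595 reads, or 17.7 and 12.2 CPM. Taken against 3 counts over the whole group, its level was at least 650-fold higher than in WT and at least 555-fold higher than in Cis KO. With only 1 library of the empty group kept, these bounds were 350 without WT replicate 1 and 299 without WT replicate 2, and 227 and 327 without Cis KO replicates 1 and 2. Skint3 passed the filter on low counts only through the double mutant, whereas the other 3 genes, which also passed, had reads in every library. These intervals and bounds cover counting error only.

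**Figure D1:**
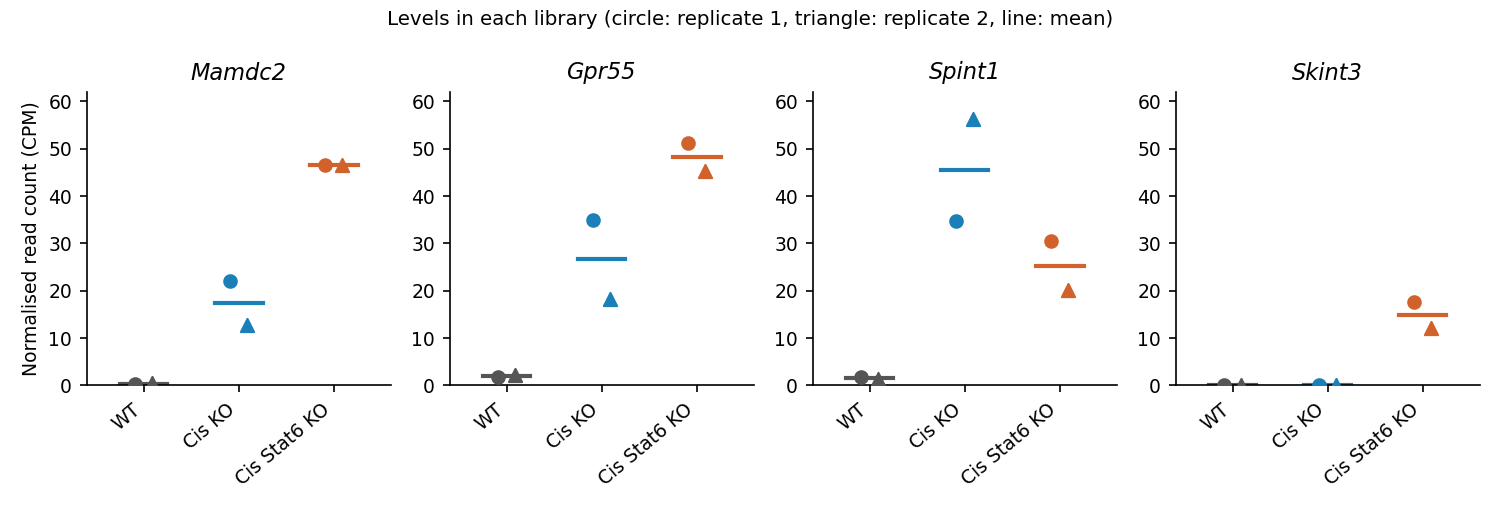
Normalised read counts (CPM, linear axis) of the 4 genes in each library by genotype. Circles are replicate 1, triangles replicate 2 and lines the group mean of 2 libraries. Mamdc2 and Gpr55 were highest in Cis Stat6 KO (45.4 to 51.3 CPM), Spint1 in Cis KO (34.8 and 56.2 CPM), and Skint3 was read only in Cis Stat6 KO.

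Levels of different genes were compared per length, in FPKM. In WT, Spint1 (0.64 and 0.43 FPKM) and Gpr55 (0.46 and 0.54 FPKM) overlapped, and Mamdc2 (0.05 and 0.12 FPKM) lay below both. In Cis KO, Spint1 led with 12.3 and 15.7 FPKM, above Gpr55 at 9.23 and 3.81 and Mamdc2 at 6.27 and 2.87, whose libraries overlapped each other. In Cis Stat6 KO, Mamdc2 (13.1 and 11.3 FPKM) and Gpr55 (13.4 and 10.2 FPKM) could not be ordered beyond their spread, Spint1 (10.7 and 6.09 FPKM) overlapped Gpr55, and Skint3 (4.47 and 2.66 FPKM) was the lowest. The level of Mamdc2 relative to Spint1 was thus 0.508 and 0.183 in Cis KO and 1.23 and 1.85 in Cis Stat6 KO. Among the 16765 tested genes, mean FPKM placed Mamdc2 above 11.1% of genes in WT, 64.5% in Cis KO and 81.4% in Cis Stat6 KO. The corresponding shares for Gpr55 were 29.6%, 71.1% and 80.9%, and for Spint1 30.3%, 83.0% and 75.3%. In the double mutant Skint3 stood above 58.7% of the tested genes.

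Across all tested genes, 3983 had a positive fitted difference from WT in both mutants. Ordered by the smaller of the 2 differences, Mamdc2 ranked 67, Spint1 130 and Gpr55 140 of 16765. This order includes genes without a read in WT, such as Ccbe1, whose fitted differences are no estimate of size. Genes called higher than WT in both mutants (edgeR quasi-likelihood test, Benjamini-Hochberg adjusted p under 0.05 in each) numbered 7, or 0.0418% of those tested, and included Flt1 and Ccbe1. Mamdc2, Gpr55 and Spint1 were also among them, which is a description only, since these are the comparisons they were chosen on. In 990 genes, 5.91%, all 4 mutant libraries lay above both WT libraries, as they did for the 3 genes. The 2 comparisons share the WT libraries. With either WT library or either Cis Stat6 KO library left out, edgeR called 0 genes in both (86 to 99 at an unadjusted p under 0.05). With Cis KO replicate 1 left out the count was 87, and with replicate 2 left out it was 40.

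The sign and size of the difference between the mutants were not named in the choice of Mamdc2, Gpr55 and Spint1. The values of both mutants entered that choice, however, which left out genes that fell back to WT in the double mutant. The p-values and intervals below are therefore not independent of it. The difference between the mutants asks whether STAT6 loss on top of CIS loss moved the 3 genes further. Mamdc2 was higher in Cis Stat6 KO than in Cis KO by 1.42 ± 0.38 on the log2 scale (95% interval 0.50 to 2.33), a ratio of 2.67. Gpr55 was higher by 0.86 ± 0.33 (0.08 to 1.64), a ratio of 1.81. Spint1 was lower, at -0.85 ± 0.34 (-1.66 to -0.03), a ratio of 0.557. In the edgeR quasi-likelihood test the unadjusted p-values were 0.00842, 0.0355 and 0.0436 and the Benjamini-Hochberg adjusted p-values 0.180, 0.248 and 0.264. So 0 of 3 were called, where 0.358% of all tested genes were, and 3 of 3 had an unadjusted p under 0.05, as had 18.3% of all tested genes. DESeq2, which called 12.3% of the genes it adjusted, called Mamdc2 (adjusted p = 0.0074), and limma-voom, which called 0.37%, called none of the 3.

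For each of these 3 genes the mutant groups were fully separated, but this alone is common: 27.9% of tested genes had both Cis Stat6 KO libraries above both Cis KO libraries and 22.5% had both below. Mamdc2 and Gpr55 were lower in Cis KO replicate 2, the library that stood apart, than in replicate 1, and Spint1 was higher there. Each of the 3 differences was therefore larger when replicate 2 alone stood for Cis KO: 1.87 for Mamdc2, 1.41 for Gpr55 and -1.14 for Spint1, each then called (edgeR adjusted p = 0.00463, 0.00329 and 0.0221). That fit, with 1 Cis KO library, called 32.2% of all genes it tested. Over all alternatives the adjusted p ran from 0.000202 to 0.730 for Mamdc2, from 0.00329 to 0.730 for Gpr55 and from 0.0221 to 0.730 for Spint1. With replicate 1 alone, the differences were 1.07, 0.46 and -0.47, in the same directions and not called. The part of the deviant library in these differences was not tested further.

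**Figure D2:**
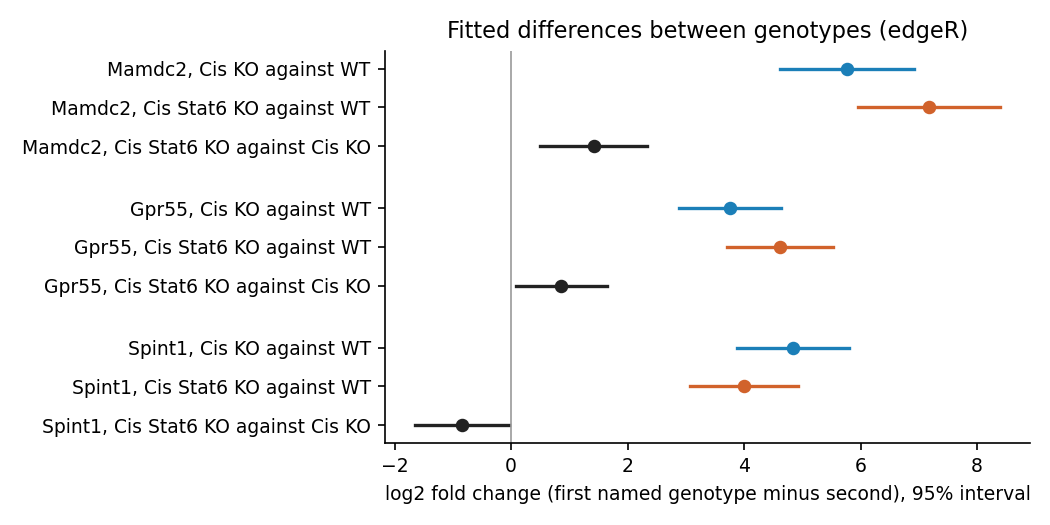
Fitted log2 differences between genotypes (first named minus second) from edgeR, with 95% intervals, for the 3 genes with reads in all genotypes. Points for the comparisons with WT (blue and orange) describe the choice of the genes. The black points, Cis Stat6 KO against Cis KO, lie at 1.42 for Mamdc2, 0.86 for Gpr55 and -0.85 for Spint1.

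The 4 profiles over the 6 libraries were alike in part. Pearson's r of log2(CPM + 0.5) was 0.997 between Mamdc2 and Gpr55, and 0.890 and 0.896 between Spint1 and these. Skint3 gave 0.685 with Mamdc2, 0.658 with Gpr55 and 0.343 with Spint1. With 6 libraries in 3 genotypes, and genes chosen for their genotype pattern, these values describe the order of the libraries and carry no p. Per length, Mamdc2 was 0.109 and 0.222 of Gpr55 in WT, 0.679 and 0.753 in Cis KO and 0.978 and 1.10 in Cis Stat6 KO, so the pair did not rise in equal proportion.

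The 3 genes most similar to each, by the same r among 9769 candidates with at least 5 CPM in some library, were as follows. For Mamdc2 they were Car9, a carbonic anhydrase (r = 0.998), Gpr55 (0.997) and Ccbe1, which encodes an EGF-domain protein required for growth of lymphatics (0.995). For Gpr55 they were Ccbe1 (0.999), Mamdc2 (0.997) and Prune2 (0.994). For Spint1 they were Def8 (0.998), the VEGF receptor gene Flt1 (0.995) and Klhdc4 (0.992). Skint3 was nearest to the mitochondrial cytochrome gene Cyb5b (0.992), to Rcan3, a calcineurin regulator (0.991), and to Acp1, a tyrosine phosphatase (0.984).

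High r did not mean a similar size of change. Ccbe1 had no read in WT, 11.1 and 5.66 CPM in Cis KO and 16.8 and 14.0 CPM in Cis Stat6 KO. Flt1 had 7.04 and 5.89 CPM in WT, 97.0 and 104.8 CPM in Cis KO and 81.7 and 58.1 CPM in Cis Stat6 KO, so that, like Spint1, it was highest in Cis KO. Def8, by contrast, differed from WT by only 0.57 and 0.46 on the log2 scale. The genes nearest to Skint3 were expressed in every genotype: Cyb5b lay at 103 to 110 CPM in WT and Cis KO and at 160 and 161 CPM in Cis Stat6 KO. Acp1 lay at 15.2 to 17.0 CPM and then at 35.2 and 39.4 CPM. Between 26 and 30 genes had r above 0.95 with each of the 4.

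**Figure D3:**
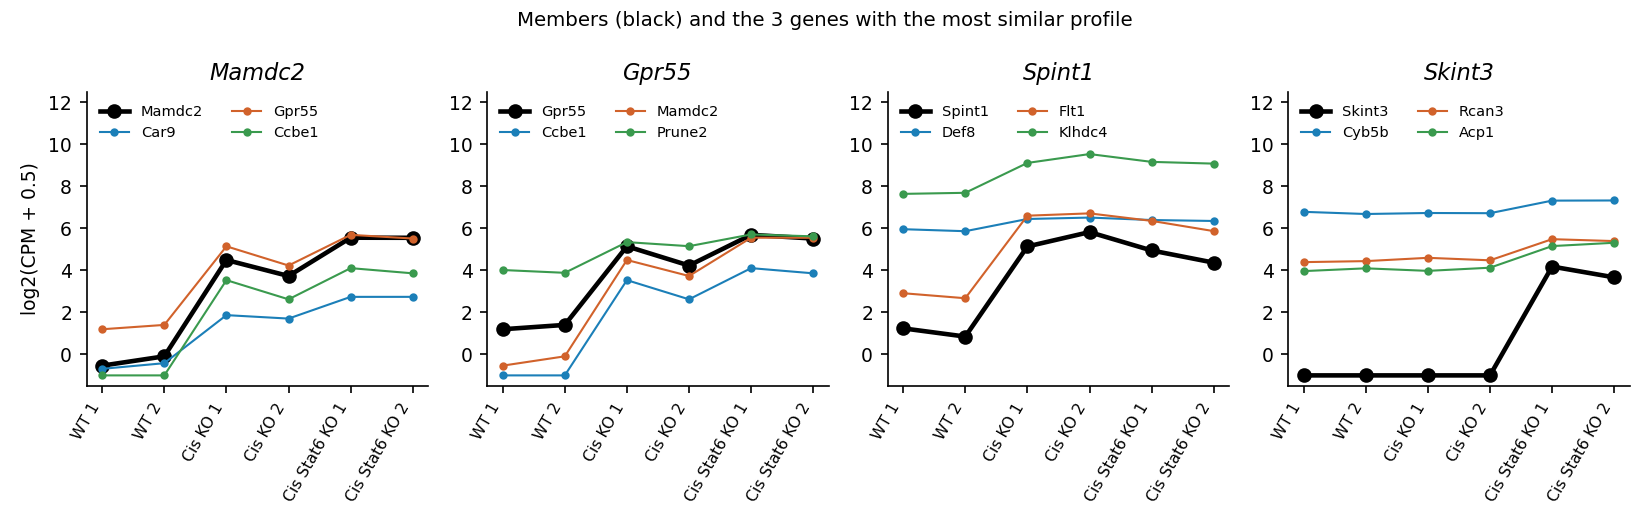
Profiles of the 4 genes (black) and of the 3 genes with the highest Pearson r to each, as log2(CPM + 0.5) in the 6 libraries. Lines only join the points of a gene. Mamdc2, Gpr55 and Ccbe1 step down together in Cis KO replicate 2, Spint1 and Flt1 do not, and the companions of Skint3 start from an expressed level.

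The genes beside the 4 were examined because position played no part in their choice. At Gpr55, the nearest tested gene that does not overlap it was Gm28884, 985 bases away. It is annotated as an antisense transcript at chr1:85933247-85937332 on the minus strand, which is also the strand of Gpr55. It had 0 reads in both WT libraries, 90 and 55 in Cis KO and 79 and 84 in Cis Stat6 KO, at least 56.7-fold and 58.3-fold more than 3 counts over the WT group. Its level was 1.14 to 1.73 CPM in the mutants, and it was not called (edgeR adjusted p = 0.0967 in Cis KO and 0.140 in Cis Stat6 KO). 4933407L21Rik overlaps 2307 bases of Gpr55 on the opposite strand and had 0 and 3 reads in WT, 32 and 15 in Cis KO and 20 and 6 in Cis Stat6 KO. No source names the strandedness of the libraries. Reads of Gpr55 and 4933407L21Rik may therefore not be told apart within these 2307 of the 22690 bases that Gpr55 spans. Gm28884 shares no base with Gpr55. The part of such reads in the Gpr55 difference was not tested.

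The other neighbours did not follow the 4 genes. Smc5, a cohesin-like subunit gene 28.7 kb from Mamdc2, lay at 26.9 and 29.0 CPM in WT, 21.9 and 9.34 in Cis KO and 33.9 and 29.7 in Cis Stat6 KO. Gm9493 on its other side, Gm18180 beyond Gpr55, and Zfyve19 and Rhov beside Spint1 were not called in either comparison with WT (edgeR adjusted p from 0.494 to 1.000). Zfyve19, 20.3 kb from Spint1, differed from WT by 0.39 ± 0.25 in Cis KO and -0.21 ± 0.25 in Cis Stat6 KO on the log2 scale. Rhov, a small GTPase gene 19.7 kb away, differed by -0.93 ± 0.52 and 1.25 ± 0.52. The nearest tested genes to Skint3 were Slc5a9 at 329 kb and Gm12816 at 655 kb, both at 0.617 CPM or less in every library. Gm50443 and Gm50445, predicted genes within Mamdc2, had no read in any library.

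Of the Skint genes examined, Skint3 alone had reads; Skint7, Skint8, Skint10 and Skint11 are not analysed here. Of 28 Skint, butyrophilin-like and related T-cell receptor genes listed, 20 were in the tables, and 11 of these had no read in any library, among them Skint1, Skint2, Skint4, Skint5, Skint6 and Skint9. Besides Skint3, 5 genes of the list were tested, and edgeR called 0 of 5 in each comparison (0 at an unadjusted p under 0.05, 0 by DESeq2 and 0 by limma-voom). The most read of these, Btnl6, had 1.76 and 2.28 CPM in WT, 0.969 and 0 in Cis KO and 2.77 and 3.02 in Cis Stat6 KO. Ermap stayed between 0.511 and 1.10 CPM in all 6 libraries. Trdc, the delta chain of the T-cell receptor, named after its values were seen, was at 0.350 CPM or less throughout.

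The counts for the related lists, and for the marker lists further below, are to be read against all tested genes. At an unadjusted p under 0.05 in edgeR these were 11.1% in Cis KO against WT, 5.36% in Cis Stat6 KO against WT and 18.3% between the mutants. DESeq2 called 3.39%, 2.16% and 12.3% of the genes it adjusted, and limma-voom 0.221%, 0.155% and 0.37%.

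For Gpr55 the related list held 34 other tested genes for lysophospholipid and cannabinoid receptors, for the enzymes that make or break down their ligands, and for the G proteins and kinases downstream. In Cis KO against WT, where 0.274% of all tested genes were called, 1 of the 34 was, lower: Ddhd1, a phospholipase A1 that produces the lysophosphatidylinositol that GPR55 binds. Ddhd1 fell from 156 and 169 CPM in WT to 67.6 and 65.3 CPM in Cis KO and stood at 183 and 189 CPM in Cis Stat6 KO. The fall was -1.29 on the log2 scale (edgeR adjusted p = 0.0494), and the double mutant lay 1.49 above Cis KO (adjusted p = 0.0308), while it did not differ detectably from WT (0.20). Ddhd1 was thus at its lowest where Gpr55 was intermediate. The direction held in each alternative, but the call against WT was lost in 10 of 17 and that between the mutants in 9 of 17, among them each fit without a WT or Cis Stat6 KO library (highest adjusted p 0.501 and 0.296).

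No other gene of that list was called by edgeR in any comparison. In Cis Stat6 KO against WT, where 0.131% of all tested genes were called, edgeR called 0 of 34 (1 at an unadjusted p under 0.05, 0 by DESeq2 and 0 by limma-voom). Between the mutants edgeR called Ddhd1 alone, whereas DESeq2 called 7 of the 34. The median log2 difference was -0.04 in Cis KO and -0.01 in Cis Stat6 KO, beside -0.05 and -0.00 over all tested genes. Abhd12, a lysophosphatidylserine lipase and the most read of the list, ranged from 546 to 981 CPM, and Pla2g15, a lysosomal phospholipase, from 387 to 866 CPM. Cnr2, the cannabinoid receptor of immune cells, named after its values were seen, lay at 77.7 and 91.9 CPM in WT, 83.2 and 78.2 in Cis KO and 70.2 and 38.5 in Cis Stat6 KO.

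For Spint1 the list held 17 other tested genes, mostly of the HGF and MSP activation system, its proteases, inhibitors and receptors. Epcam and Egfr were also in it. edgeR called 0 of 17 in each of the 3 comparisons. At an unadjusted p under 0.05 there were 3, 3 and 2 (Cis KO against WT, Cis Stat6 KO against WT, and between the mutants), DESeq2 called 1, 2 and 2, and limma-voom 0. The 1 that DESeq2 called in Cis KO against WT was Epcam, which is also among the epithelial markers below. The medians were -0.17, 0.22 and 0.45, against -0.05, -0.00 and 0.05 over all genes; without Cis KO replicate 1 the first was 0.29. Plaur, the urokinase receptor, was the most read at 172 to 273 CPM, and Tfpi, a Kunitz-type inhibitor of coagulation, lay at 9.54 to 19.8 CPM.

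The proteases that HAI-1 inhibits and its paralogue did not share the rise of Spint1; they are named here after their values were seen. St14, which encodes matriptase, was at 1.48 to 3.81 CPM in the 6 libraries and Hpn, which encodes hepsin, at 9.82 to 18.3 CPM. Hgfac, the HGF activator gene, had no read in any library. Spint2, the paralogous inhibitor, lay at 5.52 and 7.12 CPM in WT, 4.22 and 9.11 in Cis KO and 7.14 and 8.37 in Cis Stat6 KO, so its groups overlapped. Of the receptors, Met had 1.35 and 0.453 CPM in WT, 0.828 and 0 in Cis KO and 7.14 and 8.02 in Cis Stat6 KO, and edgeR did not call it, while DESeq2 called it between the mutants (adjusted p = 0.0192). Mst1r, the MSP receptor gene, had 12 and 84 reads in WT and none in the 4 mutant libraries, and was not called by edgeR or limma-voom. DESeq2 adjusted its p-value in Cis KO against WT alone and did not call it there (adjusted p = 0.164).

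Among the other MAM domain genes, edgeR called 0 of 8 in each comparison (1, 0 and 2 at an unadjusted p under 0.05, in the same order, 1, 0 and 2 by DESeq2 and 1, 0 and 0 by limma-voom). Their median was -0.85 in Cis KO (-1.47 without replicate 1) and -0.76 in Cis Stat6 KO (-0.29 without replicate 1). Nrp2, a semaphorin and VEGF co-receptor and the most read, had 163 and 162 CPM in WT, 62.7 and 44.6 in Cis KO and 122 and 143 in Cis Stat6 KO. The Cis KO libraries of Nrp2 lay below all the others, yet edgeR did not call its difference from WT (adjusted p = 0.0624), whereas DESeq2 (5.31e-09) and limma-voom (0.0417) did. Nrp1 lay between 33.7 and 47.1 CPM in all 6.

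Of 25 STAT5 target and SOCS family genes, Cish included, edgeR called 0 in each comparison (4, 1 and 1 at an unadjusted p under 0.05, 1, 1 and 1 by DESeq2 and 1, 1 and 0 by limma-voom). In both comparisons with WT, the 1 gene that DESeq2 and limma-voom called was Cish itself, the targeted gene. Mcl1, an anti-apoptotic BCL2 family gene, and Csf2rb, the common beta receptor chain for GM-CSF, were the most read, at 492 to 746 and 404 to 567 CPM. The medians were -0.16, -0.02 and 0.23.

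**Figure D4:**
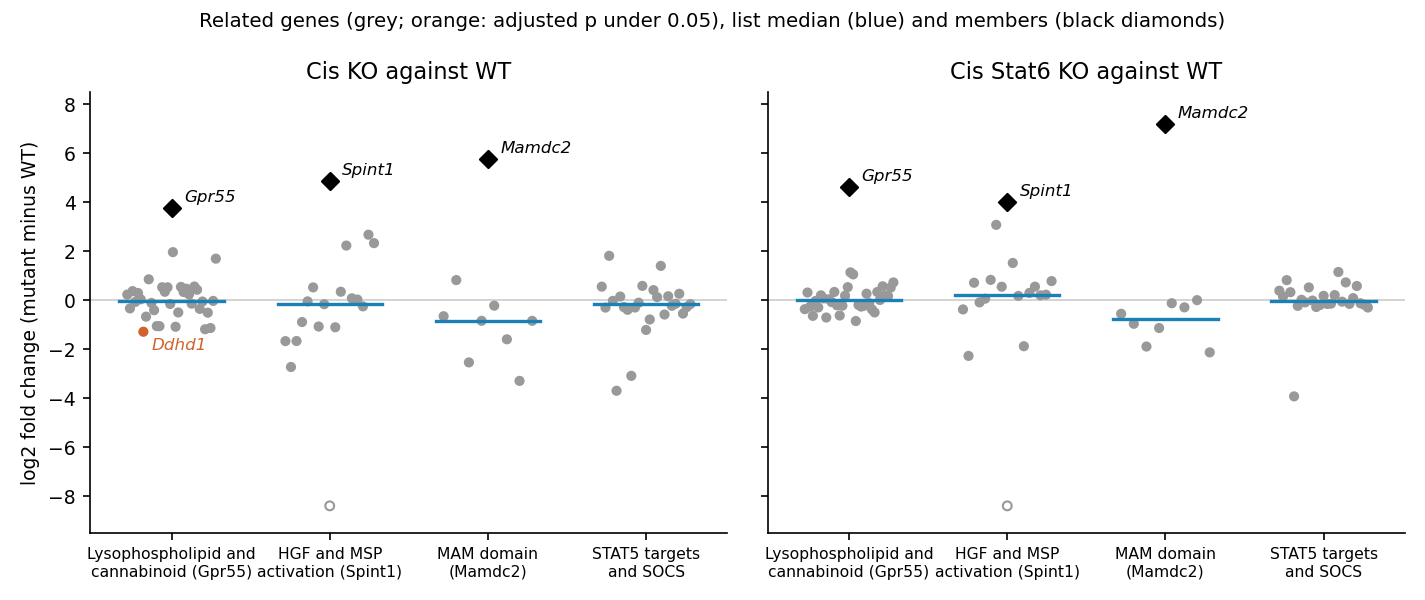
Log2 differences from WT of the tested genes in the related lists (grey points; orange, adjusted p under 0.05), with the list median without the named genes (blue lines) and Gpr55, Spint1 and Mamdc2 (black diamonds). The open circle is Mst1r, which had no read in either mutant, so its fitted value is no estimate of size. The other genes centre near 0 in most lists, and Ddhd1 is the called one.

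Bulk counts cannot tell fewer cells of a type from less RNA per cell, so markers of other cells were read beside the 4 genes. Spint1 is an epithelial gene in many tissues. The 24 epithelial markers were all detected and summed to 1239 and 1228 CPM in WT, 1358 and 2387 in Cis KO and 1032 and 809 in Cis Stat6 KO. Krt19, the most read of them, followed the same order, with 501 and 474, 757 and 1155, and 434 and 321 CPM. The sum came largely from few genes. Beside Krt19, Tubb4b lay at 184 to 345 CPM, whereas Krt8 and Krt18 were at most 10.8 and 6.03 CPM in any library. Cis KO replicate 2 had both the highest sum and the highest Spint1. Both Cis Stat6 KO libraries had a lower sum than both WT libraries. The median log2 difference of the 24 markers from WT was 0.465 in Cis KO and -0.99 in Cis Stat6 KO. Over all tested genes these were -0.05 and -0.00. Single markers, named after their values were seen, differed in direction. Epcam lay at 29.0 and 22.6 CPM in WT and at 3.15 to 7.46 CPM in the 4 mutant libraries. Cdh1 lay at 31.2 and 37.0 CPM in WT and at 55.0 to 75.4 CPM in the mutants, higher as Spint1 was. Cyp2f2 lay at 106 and 122 CPM in WT, 45.0 and 212 in Cis KO and 38.3 and 27.3 in Cis Stat6 KO. The part of epithelial cells in the Spint1 difference was not tested. edgeR called 0 of the 24 markers in each comparison (5, 7 and 10 at an unadjusted p under 0.05, 3, 2 and 8 by DESeq2 and 0 by limma-voom).

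Skint genes are known from keratinocytes and thymic epithelium. The 15 keratinocyte and squamous markers in the tables summed to 12.1 and 12.1 CPM in WT, 6.61 and 35.0 in Cis KO and 7.90 and 4.65 in Cis Stat6 KO, and Dsc3, Ivl, Lor and Flg had no read in any library. Krt15, the most read, lay at 4.41 and 1.56 CPM in the double mutant and at 3.56 to 27.2 CPM in the others. The double mutant libraries, where Skint3 was read, held the lowest sum and the third lowest. Only 4 of the 15 markers reached 1 CPM in any library, and the cell source of the Skint3 reads was not tested. T and NK cell markers summed to 312 to 538 CPM, mostly from Cd2, with Cis KO replicate 2 the highest. Erythroid markers summed to 38670 CPM in that library and to 15.3 to 359 CPM in the others, and its neutrophil sum was 913 CPM against 176 to 317. B cell, dendritic cell and eosinophil or mast cell sums were at most 120, 85.7 and 66.3 CPM, each highest in that library, and endothelial and mesenchymal markers summed to 118 to 170 CPM.

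Summed monocyte and interstitial macrophage markers had the genotype order of Mamdc2 and Gpr55. All 15 were detected, and they summed to 313 and 310 CPM in WT, 324 and 350 in Cis KO and 435 and 478 in Cis Stat6 KO. Fcgr4, the most read, lay at 142 and 134, 182 and 180, and 170 and 223 CPM. Of the 13 tested, edgeR called 0 in each comparison (2, 5 and 3 at an unadjusted p under 0.05, 0, 1 and 3 by DESeq2 and 0 by limma-voom). The alveolar macrophage sum was likewise highest in Cis Stat6 KO, at 36560 and 45520 CPM, against 19680 and 28410 in WT and 23890 and 20590 in Cis KO. Much of that sum was Chil3, at 22280 and 31130 CPM in Cis Stat6 KO, 8777 and 15010 in WT and 11570 and 6881 in Cis KO. The median log2 difference of the 18 markers from WT was only 0.19 in Cis Stat6 KO and 0.09 in Cis KO. edgeR called 0 of the 18 in each comparison. The part of these cells in the differences of Mamdc2 and Gpr55 was not tested.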

How the data were processed

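RNA of lavage cells was measured by bulk sequencing in 6 libraries. Per the file headers, the authors deposited raw read counts per gene, and FPKM values (counts per gene length and library total). The submitters' processing notes name mm10. Aligner, counting tool and strandedness: not given in the sources used here. The counts were fitted with edgeR 4.0.16 in R 4.3.3 (TMM scaling, filterByExpr, 1 quasi-likelihood fit of all 6 libraries by genotype, two-sided tests, Benjamini-Hochberg adjustment over 16765 genes, called under 0.05). CPM used the TMM factors. Intervals of log2 differences are moderated, with SE taken as the difference over the square root of F. The common biological coefficient of variation was 50.3%, more than the counting error at the 11 reads of Mamdc2 in WT. Alternatives used DESeq2 1.42.0 and limma 3.58.1 (voom, and log2 FPKM with a pseudocount of 1 or 0.1), other scalings and filters, and each library left out. The fit was tested on simulated data.

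The 4 genes, the related lists and the marker lists were chosen with earlier results of these data known. Other genes named are the 3 most similar to each of the 4, their nearest tested neighbours and the genes that overlap them. Also named are every called gene and the 2 most read of each related list, the most read of marker lists, and those said to be chosen later.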

Additional observations from a re-analysis of the deposited data

How the results depend on the processing

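The differences of Mamdc2, Gpr55 and Spint1 kept their direction in all 3 comparisons under each of the 17 alternatives. Against WT they ran from 5.71 to 5.83, 3.70 to 3.77 and 4.70 to 4.88 in Cis KO over other count models, and from 7.12 to 7.26, 4.55 to 4.61 and 3.95 to 4.03 in Cis Stat6 KO. On log2(FPKM + 1) they shrank to 2.29, 2.23 and 3.29, and to 3.60, 3.08 and 2.57, since the pseudocount exceeds the WT values. Between the mutants Mamdc2 passed the threshold with DESeq2 (1.40) and without a filter (1.41), and Gpr55 without a filter (0.85). Leaving out 1 library gave 1.07 to 1.87 for Mamdc2, 0.46 to 1.41 for Gpr55 and -1.18 to -0.47 for Spint1, and the lone library is then assumed to vary like the other groups.

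Counts of called genes moved far more, and the cause was not tested. The 46 calls in Cis KO against WT, 22 in Cis Stat6 KO against WT and 60 between the mutants became 525, 320 and 1543 with DESeq2, 1021, 385 and 1840 without a filter, 6, 277 and 5 with only the 2 groups compared, 74, 52 and 191 on log2(FPKM + 1), and 2, 1 and 2 on that scale without a filter. On log2(FPKM + 0.1) the second and the third became 35 and 99, and with library size alone the first and the third became 26 and 29. Leaving out 1 library gave 3 to 5349, 0 to 350 and 4 to 5999. The 7 genes higher in both mutants became 63 with DESeq2, 4 with limma-voom, 90 without a filter, 0 on unfiltered log2(FPKM + 1) and 0 to 87 with 1 library left out.

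With the replicate number as a block the counts were 24, 12 and 28, and 6 genes were higher in both. Libraries with the same number did not deviate together (correlations of -0.03, -0.07 and 0.01). Whether they share more than a number is not given by the labels and was not tested. Medians of the related lists moved by less than the replicate spread in 81 of 120 alternative values. With 1 library left out, medians changed sign in the lysophospholipid list (-0.04 to 0.04, -0.01 to 0.15 and -0.15 to 0.06 in the 3 comparisons), the HGF list (-0.17 to 0.29 in Cis KO), the MAM list (0.10 to -0.67 between the mutants), the Skint list (-0.41 to 0.47 in Cis Stat6 KO and 1.20 to -0.68 between the mutants) and the STAT5 list (-0.02 to 0.03 in Cis Stat6 KO). The lower bounds for Skint3 fell to 299 and 227 with 1 library left out. Depth limits Mamdc2 in WT, at 11 and 30 reads.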
